A study of Mus musculus with 8 samples.

Results

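The interaction described here is the effect of stabilised β-catenin on gene expression in mouse intestinal epithelial cells with the IKKα AA allele, minus the same effect without it. All 8 arrays of the study entered, 2 in each of 4 groups taken from the sample titles: wild type (WT), IkkαAA/AA (IKKa-AA), β-catc.a. (bCATca) and β-catc.a./IkkαAA/AA (double mutants). All 4 groups, WT included, were mice of mixed background (C57BL/6 x 129Sv x FVB) that had received tamoxifen by gavage on 5 consecutive days. The epithelium was harvested on day 15, counted from the start of tamoxifen. Stabilisation of β-catenin was restricted to the intestinal epithelium and induced by tamoxifen, per the design text, and its driver is not named in the sources used here. As background, the AA allele is a knock-in that replaces the serines at which IKKα is activated, and it is carried by every cell of the mouse, not by the epithelium alone. The age of the mice, their sex, and whether the 2 arrays of a group came from separate animals, were not stated, so the p-values measure only the spread between these arrays.

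As background, β-catenin is the transcriptional arm of Wnt signalling. It is normally degraded in cells without a Wnt signal. When it is stabilised it enters the nucleus, binds TCF/LEF factors and turns on targets such as Axin2, Lgr5 and Nkd1, several of which feed back to restrain the pathway. In the gut this programme keeps crypt stem cells dividing, and its constant activity is the usual first step towards intestinal tumours. IKKα is a kinase of the IκB kinase complex that also acts in the alternative NF-κB pathway and in the nucleus. The question put to the 4 groups is which responses to stabilised β-catenin were smaller, kept, or seen only in mice with the AA allele.

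The deposited intensities were taken to log2, and the brightest probe set with a single symbol stood for each of 12393 genes. A gene passed where limma's adjusted p was below 0.05. Epithelial identity was carried by all arrays: the summed linear intensity of 10 epithelial markers lay between 41129.2 and 46363.3. Levels up to 4.03 (log2) are called near background, the height reached by transcripts that a sample should lack. WT replicate 1 stood apart in sex-linked transcripts: Xist read 9.18 on it and at most 4.03 on the other 7 arrays. The median gene had an SE of 0.24 (log2) for the interaction. The IKKa-AA arrays differed most from each other, with an SD of 0.431 (log2) between replicates over all genes, where WT had 0.292, bCATca 0.336 and the double mutants 0.304. The 3′ minus 5′ difference of the Gapdh control probes was between -0.24 and 0.05. The 3′ probe set for 18S RNA was lowest in WT (11.31 and 11.69) and highest on the IKKa-AA arrays (12.39 and 12.35). It read 11.97 and 12.15 with bCATca and 11.77 and 12.07 in the double mutants, and its part in the results was not tested. Ctnnb1 itself, the gene of β-catenin, had an interaction of -0.14 (adjusted p = 0.775), while the IKKα gene itself was not analysed here.

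More genes passed for the effect of stabilised β-catenin in mice with normal IKKα than in mice with the AA allele. Not passing does not mean unchanged. At an unadjusted p below 0.05 (limma) the counts were 3648 and 859 of 12393 genes. Where nothing changes, a share of about 0.05 of all genes falls below that threshold, so both counts include genes without a change. In bCATca against WT, 1151 genes passed (9.29% of those tested), of which 711 were higher (5.74%) and 440 lower (3.55%). In double mutants against IKKa-AA, which shares no array with the first comparison, 7 genes passed (0.0565%), of which 6 were higher (0.0484%) and 1 lower (0.00807%). The difference between these effects passed for 11 genes (0.0888%). These 11 were 6 that β-catenin raised (0.0484% of genes, lower interaction) and 5 that it lowered (0.0403%, higher interaction). In each the estimated effect was smaller in mice with the AA allele, which for Amph rests on levels near background. At an adjusted p below 0.1, 148 genes (1.19%) had an interaction, 55 higher (0.444%) and 93 lower (0.750%). In 146 of the 148 the estimated effect was smaller in size with the AA allele, and in Per1 and Gnb3 it was not. In 58 of the 148 the estimate had the opposite sign with the AA allele, among them Per2, Acox2 and Fzd7 of the 11. The interaction shares its arrays with both β-catenin effects, so this sorting of genes is a description.

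The 6 genes that β-catenin raised and that passed the interaction test were Myl9, Hacd4, Hs6st2, Nkd1, Marcksl1 and Fzd7. Myl9, a regulatory light chain of smooth muscle and non-muscle myosin, read 3.39 and 3.26 (log2) on the WT arrays, 2.83 and 3.10 on those of IKKa-AA, 8.86 and 8.64 with bCATca alone, and 4.84 and 5.47 with both alterations. Both control groups were near background, both bCATca arrays were far above every other array, and the double mutants lay between them without overlap. The rise was 5.42 ± 0.22 (log2, SE) without the AA allele and 2.19 ± 0.22 with it. The interaction was -3.23 ± 0.31 (95% interval -3.94 to -2.52, adjusted p = 0.0166). Both rises start near background, so their fold is not measured exactly, whereas double mutants and bCATca were both above it and differed by -3.60 (adjusted p = 0.00152). Myl9 was 1 of 2 of these genes, with Hs6st2, that still passed in double mutants against IKKa-AA (adjusted p = 0.0366 for each).

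Hs6st2, an enzyme that adds sulfate to heparan sulfate chains, read 2.71 and 2.70 on the WT arrays, 2.52 and 2.53 on those of IKKa-AA, 6.32 and 6.36 with bCATca alone, and 3.75 and 4.15 with both alterations. The bCATca arrays again stood alone at the top, and 1 of the double mutant arrays was still near background. Its rise went from 3.64 to 1.42 (interaction -2.21 ± 0.22, adjusted p = 0.0166), in the same direction on 3 of 3 probe sets. Hacd4, a dehydratase of very long chain fatty acid elongation, read 4.26 and 4.22 on the WT arrays, 4.38 and 4.62 on those of IKKa-AA, 7.22 and 7.37 with bCATca alone, and 5.08 and 5.34 with both alterations. The double mutant arrays were above both control groups and about 2 log2 units under bCATca. The rise of Hacd4 was 3.06 without and 0.71 with the AA allele (interaction -2.35 ± 0.22, adjusted p = 0.0166).

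Nkd1, a Wnt-induced protein that binds Dishevelled and restrains the pathway, read 3.23 and 3.56 on the WT arrays, 3.38 and 3.37 on those of IKKa-AA, 6.47 and 6.41 with bCATca alone, and 4.36 and 4.18 with both alterations. The IKKa-AA arrays lay inside the WT range near background, while double mutants were below bCATca by 2.16 on average (-2.16, adjusted p = 0.00192). Its rise was 3.04 without and 0.90 with the AA allele (interaction -2.14 ± 0.22, adjusted p = 0.0166). Marcksl1, an actin-binding protein of the MARCKS family, read 6.28 and 6.24 on the WT arrays, 6.73 and 6.51 on those of IKKa-AA, 8.79 and 8.88 with bCATca alone, and 7.29 and 7.50 with both alterations. Its lowest array was well above background, and its 4 probe sets shared one direction. The rise was 2.57 without and 0.77 with the AA allele (interaction -1.81 ± 0.21, adjusted p = 0.0282).

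**Figure D1:**
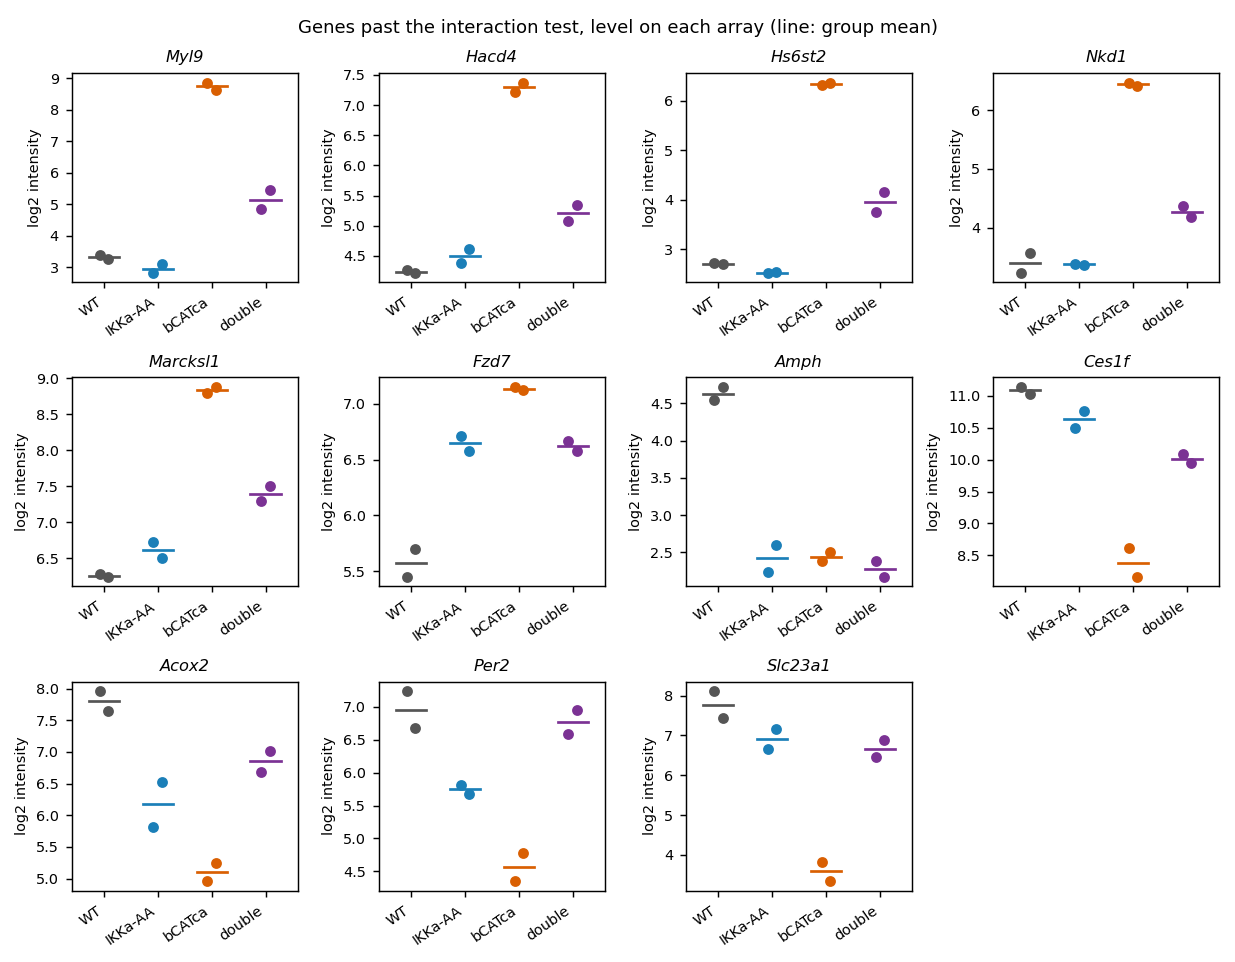
Log2 intensity of the 11 genes past the interaction test, 1 point per array and a line at each group's mean (2 arrays per group), with separate vertical axes that do not start at 0. In Myl9, Hacd4, Hs6st2, Nkd1 and Marcksl1 the bCATca arrays stand alone at the top. In Slc23a1, Per2, Acox2 and Ces1f the bCATca arrays stand alone at the bottom, and the IKKa-AA arrays are also below WT. In Fzd7 and Amph the shift of IKKa-AA from WT is the larger part of the interaction.

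The genes that β-catenin lowered and that passed, with a positive interaction, were Slc23a1, Per2, Acox2, Ces1f and Amph. Slc23a1, a sodium-dependent transporter of vitamin C, read 8.11 and 7.43 on the WT arrays, 6.65 and 7.15 on those of IKKa-AA, 3.83 and 3.34 with bCATca alone, and 6.45 and 6.89 with both alterations. The bCATca arrays were near background, while the double mutants overlapped IKKa-AA. The effect of β-catenin was -4.18 ± 0.29 without the AA allele and -0.23 ± 0.29 with it. The interaction of 3.95 ± 0.41 (adjusted p = 0.0166) was the widest estimate of the 11, but its size is not exact, since the bCATca level is near background.

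Acox2, a peroxisomal oxidase of branched fatty acids and bile acid precursors, read 7.96 and 7.64 on the WT arrays, 5.82 and 6.53 on those of IKKa-AA, 4.96 and 5.25 with bCATca alone, and 6.69 and 7.01 with both alterations. Here the double mutants were higher than either single mutant and lower than WT. The effect was -2.70 without and 0.67 with the AA allele (interaction 3.37 ± 0.35, adjusted p = 0.0166). Ces1f, a carboxylesterase that hydrolyses lipid and drug esters, read 11.14 and 11.03 on the WT arrays, 10.49 and 10.77 on those of IKKa-AA, 8.61 and 8.16 with bCATca alone, and 10.09 and 9.94 with both alterations. Its groups were ordered WT, IKKa-AA, double mutants and bCATca, with no overlap. The effect was -2.70 without and -0.62 with the AA allele (interaction 2.08 ± 0.26, adjusted p = 0.0435).

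Each interaction is made of 2 parts: the difference between double mutants and bCATca, less the difference between IKKa-AA and WT. For 9 of the 11 genes the larger part was the difference between double mutants and bCATca, and for Amph and Fzd7 it was the AA allele alone. Fzd7, a Frizzled receptor for Wnt ligands, read 5.45 and 5.70 on the WT arrays, 6.71 and 6.58 on those of IKKa-AA, 7.15 and 7.12 with bCATca alone, and 6.67 and 6.58 with both alterations. IKKa-AA and double mutants overlapped at a height between WT and bCATca. The interaction was -1.58 ± 0.20 (adjusted p = 0.0495), with 1.07 from the AA allele alone (adjusted p = 0.125) and -0.51 from double mutants against bCATca (adjusted p = 0.145), and 1 of its 2 probe sets had this direction. Amph, a membrane-bending protein of endocytosis, read 4.54 and 4.72 on the WT arrays, 2.24 and 2.60 on those of IKKa-AA, 2.38 and 2.50 with bCATca alone, and 2.39 and 2.17 with both alterations. WT alone was above background, and the other 3 groups overlapped near background, where a further fall cannot be measured. Its interaction of 2.04 ± 0.24 (adjusted p = 0.0323) rests on that floor, and Amph was the gene that passed in IKKa-AA against WT (0.00807% of genes, adjusted p = 0.0108).

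The direction of these 11 interactions was the same in every refit without 1 array, but the calls leaned on single arrays. All 11 passed without IKKa-AA replicate 1 and without IKKa-AA replicate 2, where 85 and 234 genes passed in all. Without WT replicate 1, bCATca replicate 1, bCATca replicate 2 or double mutant replicate 1, 0 of the 11 passed, with 0, 0, 0 and 1 genes passing in all. Without WT replicate 2, 3 of the 11 passed, and without double mutant replicate 2, 7 did.

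Most responses to β-catenin were too uncertain to class, so the genes with a β-catenin effect averaged over mice with and without the AA allele were described next. In a balanced design this main effect is estimated independently of the interaction. It passed for 521 genes (4.20%), of which 370 were higher (2.99%) and 151 lower (1.22%). Among the 370, the median effect was 1.23 (log2) without and 0.45 with the AA allele, and the interaction was negative in 332 (89.7%), with a median of -0.84. Among the 151, the median effect was -1.24 without and -0.36 with the AA allele, and the interaction was positive in 135 (89.4%), with a median of 0.84. Over all genes with a positive main effect the interaction was negative in 67.1% with a median of -0.18, and over all with a negative main effect it was positive in 70.8% with a median of 0.19. A lean towards a smaller effect with the AA allele was thus present over all genes, and the median was farther from 0 among those that passed. Genes that passed are chosen for larger main effects, so their larger median does not measure a larger relative loss.

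In 265 of the 370 raised genes (71.6%) the effect with the AA allele was under 1/2 of that without it, in 97 (26.2%) it lay between 1/2 and 2 times, and in 8 (2.16%) it was over 2 times. These shares are near the background, since 72.6% of all genes with a positive main effect were also under 1/2. Sign was mostly kept: 362 of the 370 raised genes and 139 of the 151 lowered genes had effects of 1 direction in both settings. Genes can also be chosen in one pair of groups and read in the other, with no shared array. Of the 711 genes higher in bCATca than in WT, 581 (81.7%) were also higher in double mutants than in IKKa-AA, against 56.1% of all genes, with the median effect going from 0.95 to 0.17. Of the 440 lower genes, 282 (64.1%) were also lower, against 43.9% of all genes, with the median going from -1 to -0.11. Selection on the first comparison by itself shrinks the second, so these last medians do not measure the loss.

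**Figure D2:**
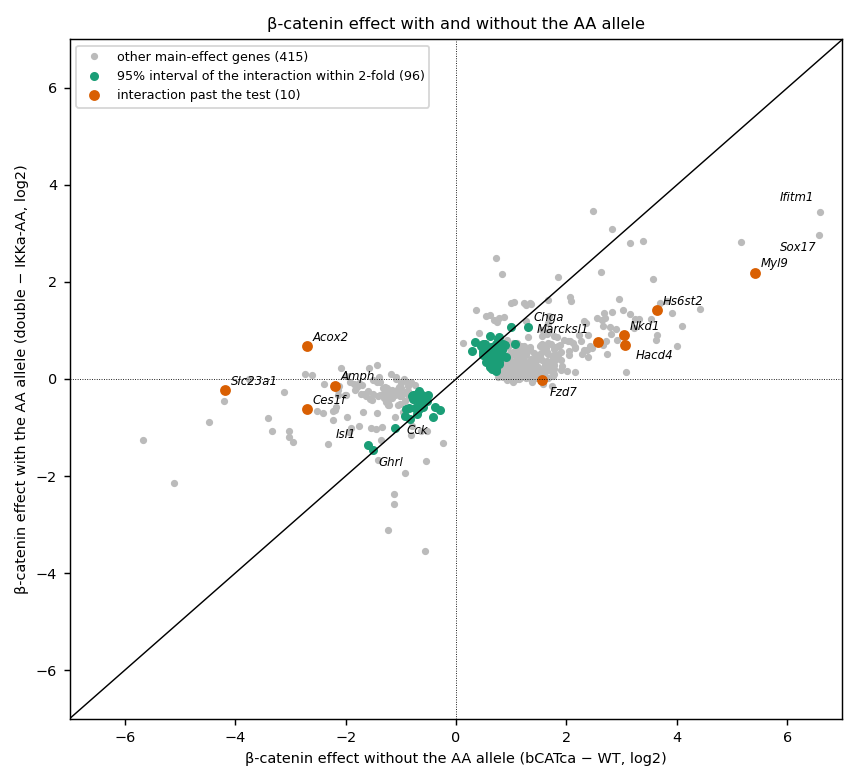
Effect of stabilised β-catenin with the AA allele (vertical axis, log2) against that without it (horizontal axis, log2) for the 521 genes of the main effect, with the line of equal effects. Raised genes lie mostly under the line and lowered genes mostly above it. The 96 genes whose interaction interval lies within 2-fold (green) lie near it, some with a smaller effect with the AA allele. Of the 11 genes past the interaction test (orange) 10 are shown, since the main effect of Per2 did not pass.

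Kept effects were sought as genes whose β-catenin effects passed both with and without the AA allele and whose 95% interval for the interaction lay within 2-fold. Isl1, a LIM homeobox factor of gut endocrine cells, was the only gene to meet all 3 conditions. It read 4.64 and 4.65 on the WT arrays, 4.55 and 4.90 on those of IKKa-AA, 2.97 and 3.14 with bCATca alone, and 3.28 and 3.44 with both alterations. The groups without stabilised β-catenin overlapped, and both groups with it were near background, where both falls end and a difference between them cannot be measured. The effect was -1.59 without and -1.36 with the AA allele (interaction 0.23, 95% interval -0.29 to 0.75).

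A wider rule, added after the data were seen, asked for a passing main effect in place of 2 passing effects, and 96 genes met it, 65 raised and 31 lowered, or 18.4% of the 521. They were mostly genes with small effects, since 5 of the 96 were among the 176 genes whose main effect was over 2-fold. For small effects the 2-fold limit does not mean an equal effect. In some of the 96 the whole interval lay on the side of a smaller effect with the AA allele. The 5 genes with a main effect over 2-fold were Ghrl, Isl1, Chga, Cck and Npl. All but Npl, a lyase of sialic acid, are endocrine genes. Ghrl, which encodes ghrelin, read 6.45 and 6.81 on the WT arrays, 6.44 and 6.69 on those of IKKa-AA, 4.95 and 5.29 with bCATca alone, and 5.04 and 5.17 with both alterations. Both groups with stabilised β-catenin overlapped at the lower level, with an interaction of 0.06 (95% interval -0.55 to 0.66). Cck, the hormone cholecystokinin, had effects of -1.10 without and -1.02 with the AA allele (interaction 0.08, 95% interval -0.57 to 0.73). Chga, the granule protein chromogranin A, went the other way, with 1.30 without and 1.08 with it (interaction -0.22, 95% interval -0.96 to 0.52). Btc, the growth factor betacellulin, had 1.07 and 0.73 (interaction -0.33, 95% interval -0.89 to 0.22).

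Over the list of 27 measured enteroendocrine genes the median interaction was 0.18, near the median of 0 over all genes. It was positive in 20 members and negative in 7, and positive in 6233 of all 12393 genes. The median effect was -0.18 without and 0.03 with the AA allele. At an unadjusted p below 0.05 (limma) 3 members were higher and 0 lower (7.90% and 7.84% of all genes). In bCATca against WT, 2 of the 27 rose and 7 fell (5.74% and 3.55% of all genes). Of these list members Isl1 also passed in double mutants against IKKa-AA. Nts, the neuropeptide neurotensin, had effects of -1.97 without (adjusted p = 0.00284) and -0.79 with the AA allele (adjusted p = 0.535). Cells of this lineage are rare in the epithelium, and in bulk RNA fewer cells of a type and less RNA per cell cannot be told apart, here or in any list that follows.

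**Figure D3:**
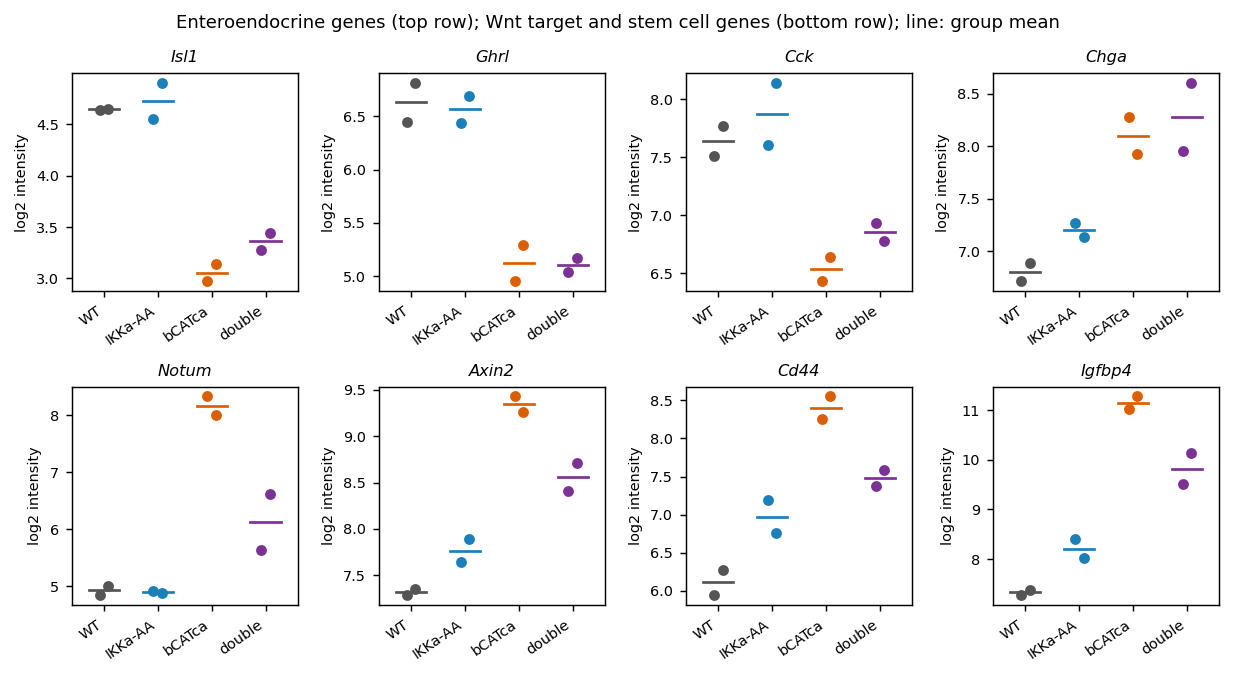
Log2 intensity on each array of 4 enteroendocrine genes (top) and 4 Wnt target or stem cell genes (bottom), with a line at each group's mean of 2 arrays and separate vertical axes that do not start at 0. In the top row the double mutants sit with bCATca, and in the bottom row they sit between bCATca and IKKa-AA.

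No gene met the rule for an effect seen only with the AA allele, which needs a passing effect in double mutants against IKKa-AA, none in bCATca against WT, and a passing interaction. None met it with limma at an adjusted p below 0.1 either. At an unadjusted p below 0.05 the interaction count was 1950 genes (15.7%), 979 higher (7.90%) and 971 lower (7.84%). Of the 7 genes that passed in double mutants against IKKa-AA, the one that did not pass in bCATca against WT was Ifi27l2a, an interferon-induced membrane protein. Ifi27l2a read 6.30 and 6.58 on the WT arrays, 7.18 and 6.13 on those of IKKa-AA, 7.07 and 7.25 with bCATca alone, and 9.18 and 9.12 with both alterations. Both double mutant arrays were above all others, which overlapped. The effect was 0.72 without (adjusted p = 0.151) and 2.50 with the AA allele (adjusted p = 0.0444), but the interaction of 1.78 did not pass (adjusted p = 0.126).

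The other 6 genes of that comparison were Bex1, Hs6st2, Ifit2, Ifitm1, Isl1 and Myl9, and each also passed in bCATca against WT. Ifit2, an antiviral protein, read 4.70 and 4.72 on the WT arrays, 6.14 and 4.70 on those of IKKa-AA, 7.23 and 7.18 with bCATca alone, and 8.95 and 8.81 with both alterations. It was the member with a higher effect with the AA allele (3.46) than without it (2.49), with an interaction of 0.96 (adjusted p = 0.397). Ifitm1, an interferon-induced membrane protein that is also a Wnt target, read 4.58 and 4.11 on the WT arrays, 4.69 and 3.99 on those of IKKa-AA, 10.80 and 11.06 with bCATca alone, and 7.22 and 8.36 with both alterations. Its effect was 6.59 without and 3.45 with the AA allele (interaction -3.14, adjusted p = 0.0549).

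Interferon response genes leaned towards a larger effect with the AA allele. Of 38 measured members 29 had a positive interaction, with a median of 0.32, a median effect of 0.67 without and 1.17 with the AA allele, and none past the test. At an unadjusted p below 0.05 there were 6, all higher, where 7.90% of all genes were higher. Over all genes the interaction was positive in 6233 of 12393. The median difference from WT was 0.88 and 0.24 on the IKKa-AA arrays, 0.86 and 0.59 with bCATca alone, and 1.80 and 1.81 with both alterations. The median interaction was 0.72 without IKKa-AA replicate 1 and -0.04 without IKKa-AA replicate 2. Mx1, an antiviral GTPase, had effects of 0.36 and 1.43 (interaction 1.08, adjusted p = 0.179). Oas3, which makes the second messenger of the RNase L pathway, had -0.11 and 1.13 (interaction 1.24, adjusted p = 0.229).

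Wnt targets and feedback inhibitors leaned the other way. Of 29 measured members, 2 passed the interaction test, both lower (Nkd1 and Fzd7), where 0.0484% of all genes were lower. At an adjusted p below 0.1, 7 were lower (0.750% of all genes). The interaction was negative in 25 members, and in 6160 of all 12393 genes. In bCATca against WT, 15 rose and 1 fell (5.74% and 3.55% of all genes). The median effect over the list was 1.28 without and 0.35 with the AA allele, and the median interaction was -0.88, against 0 over all genes. Axin2, a scaffold that promotes β-catenin degradation and a classical feedback target, read 7.29 and 7.35 on the WT arrays, 7.64 and 7.89 on those of IKKa-AA, 9.43 and 9.26 with bCATca alone, and 8.41 and 8.71 with both alterations. Its groups did not overlap, and the effect was 2.02 without and 0.79 with the AA allele (interaction -1.23, adjusted p = 0.0773). Notum, an enzyme that inactivates Wnt ligands, read 4.85 and 5.01 on the WT arrays, 4.92 and 4.88 on those of IKKa-AA, 8.33 and 8.0 with bCATca alone, and 5.64 and 6.62 with both alterations (interaction -2.01, adjusted p = 0.0900). IKKa-AA lay within WT for Notum, while the double mutants were above both and below bCATca.

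Further genes that miss the threshold are given as values. Sox17, of the fetal-like list, a transcription factor that binds β-catenin, had effects of 6.58 without and 2.97 with the AA allele (interaction -3.61, adjusted p = 0.0537). Cd44, a hyaluronan receptor of crypt cells, had 2.29 and 0.51 (interaction -1.78, adjusted p = 0.0537). On the Wnt list, Wif1, a secreted Wnt inhibitor, was near background on all 8 arrays, at most 3.93 (interaction -1.0, adjusted p = 0.0933). Myc, the proliferation factor, had 1.28 and 0.55 (interaction -0.73, adjusted p = 0.213). Effects of Myc and of Axin2 thus kept their sign with the AA allele, and neither difference passed the test.

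Among 17 measured intestinal stem cell genes, 0 passed the interaction test, 4 were lower at an adjusted p below 0.1 (0.750% of all genes), 9 were lower and 1 higher at an unadjusted p below 0.05 (7.84% and 7.90% of all genes), and the median interaction was -0.92. In bCATca against WT, 8 of them rose and 1 fell (5.74% and 3.55% of all genes). Some members, Axin2 and Lgr5 among them, are also on the Wnt list, so the counts of these lists overlap. Axin2 is counted in both at an adjusted p below 0.1. Igfbp4, a secreted binder of insulin-like growth factors, read 7.28 and 7.38 on the WT arrays, 8.40 and 8.02 on those of IKKa-AA, 11.02 and 11.28 with bCATca alone, and 9.51 and 10.14 with both alterations. The groups were ordered without overlap (interaction -2.21, adjusted p = 0.0509). Prom1, a membrane protein of crypt base cells, had effects of 2.01 and 0.17 (interaction -1.84, adjusted p = 0.0509), and Cdca7, a Myc-regulated chromatin protein, had 1.76 and 0.31 (interaction -1.45, adjusted p = 0.0509). Lgr5, the R-spondin receptor that marks crypt base stem cells, read 5.58 and 5.72 on the WT arrays, 4.81 and 6.71 on those of IKKa-AA, 8.12 and 7.20 with bCATca alone, and 5.52 and 6.67 with both alterations. Its IKKa-AA arrays spanned the double mutants, and neither the effect without the AA allele (2.01, adjusted p = 0.0718) nor the interaction (-1.68, adjusted p = 0.369) passed.

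Fetal-like and regenerative genes followed the Wnt list, with a median effect of 0.98 without and 0.28 with the AA allele and a median interaction of -0.63 over 22 members. None passed the interaction test, 5 were lower at an adjusted p below 0.1, 11 at an unadjusted p below 0.05, and 11 rose in bCATca against WT. Over all genes, 0.750% and 7.84% were lower at these thresholds, and 5.74% rose. Clu, clusterin, a mark of revival stem cells, read 5.94 and 6.23 on the WT arrays, 6.06 and 6.25 on those of IKKa-AA, 10.23 and 9.95 with bCATca alone, and 7.46 and 6.21 with both alterations. One double mutant array was within the control range and the other was above it (interaction -3.32, adjusted p = 0.0509). Anxa5, a phospholipid-binding annexin, had effects of 1.90 and 0.19 (interaction -1.71, adjusted p = 0.0537), and Anxa3 had 1.69 and 0.27 (interaction -1.42, adjusted p = 0.0541).

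The promoter of Fzd7 is shown because it is the single window with a TCF/LEF match among the genes past the interaction test. RefSeq windows of 300 bases, 250 before and 50 after a start on GRCm38.p6, were searched on both strands for CTTTGAA, for its variant CTTTGAT, for its variant CTTTGTA and for its variant CTTTGTT. A window was held for 8 of the 11 genes (not for Per2, Slc23a1 or Ces1f), 10 windows in all. Of these windows 1 had a match, while 16.9% of all 32851 windows had one. For the Wnt list 7 of 29 windows, from 6 genes, had one. The Fzd7 window is chr1:59481897-59482196 on the plus strand, and capitals mark the match, written on the reverse strand of the motif.
Fzd7: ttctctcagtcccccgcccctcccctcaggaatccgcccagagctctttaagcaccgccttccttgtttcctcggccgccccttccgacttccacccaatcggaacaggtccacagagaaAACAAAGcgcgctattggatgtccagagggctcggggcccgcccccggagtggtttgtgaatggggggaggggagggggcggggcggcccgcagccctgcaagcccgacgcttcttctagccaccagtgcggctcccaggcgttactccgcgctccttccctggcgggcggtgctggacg

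Proliferation lists had smaller median effects with the AA allele, by an amount that depended on the IKKa-AA arrays. Mitosis genes had a median effect of 0.56 without and 0.03 with the AA allele (27 members, median interaction -0.56). DNA replication genes had 0.46 and 0.00 (30 members, -0.50), and ribosome biogenesis genes had 0.64 and 0.12 (27 members, -0.59, negative in all 27). None of these genes passed the interaction test, and 1, 13 and 8 of them, all lower, had an unadjusted p below 0.05, where 7.84% of all genes were lower. The 1 mitosis gene of 27 is not above that background. In bCATca against WT, 6 DNA replication genes, 7 ribosome biogenesis genes and 0 mitosis genes rose, where 5.74% of all genes did. IKKa-AA replicate 1 was itself high in these lists, with a median difference from WT of 0.79 for mitosis against -0.04 on replicate 2. Without replicate 1 the median interaction of the mitosis list was -0.14, and without replicate 2 it was -0.99. For ribosome biogenesis these values were -0.31 and -0.91, and for DNA replication -0.38 and -0.68.

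Single members show the same arrays. Cdc6, which loads the replicative helicase, read 5.73 and 5.39 on the WT arrays, 6.39 and 6.03 on those of IKKa-AA, 6.28 and 6.92 with bCATca alone, and 6.17 and 6.05 with both alterations (interaction -1.14, adjusted p = 0.193). Its IKKa-AA and double mutant arrays overlapped, both above WT. Nop56, a core protein of box C/D ribonucleoproteins, had effects of 1.01 (adjusted p = 0.0153) and 0.16 (adjusted p = 0.902), with an interaction of -0.85 (adjusted p = 0.200).

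Genes of the mature enterocyte had median effects nearer to 0 with the AA allele. The absorption and digestion list had 31 measured genes, among them Pdgfb, a growth factor gene and not a gene of absorption. Of the 31, 29 had a positive interaction, with a median of 0.69, a median effect of -0.75 without and -0.06 with the AA allele. None passed, and 3 were higher at an adjusted p below 0.1 (0.444% of all genes). At an unadjusted p below 0.05, 13 were higher and 1 lower (7.90% and 7.84% of all genes). In bCATca against WT, 12 fell (3.55% of all genes). Enpep, a brush border aminopeptidase, read 12.41 and 12.42 on the WT arrays, 12.12 and 12.32 on those of IKKa-AA, 11.44 and 11.40 with bCATca alone, and 12.34 and 12.54 with both alterations. Only the bCATca arrays were low (interaction 1.22, adjusted p = 0.0541). Dpp4, a brush border dipeptidase, had effects of -0.81 and 0.11 (interaction 0.91, adjusted p = 0.122). Slc5a4b, a member of the sodium-glucose cotransporter family, read 10.70 and 10.54 on the WT arrays, 6.64 and 9.03 on those of IKKa-AA, 5.33 and 4.56 with bCATca alone, and 6.55 and 6.59 with both alterations. One IKKa-AA array was at the height of the double mutants and the other was far above it, so the interaction of 4.41 did not pass (adjusted p = 0.0906).

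Xenobiotic metabolism genes had the highest median interaction of the lists described. All 33 measured members were positive, with a median of 1.54, and the median effect was -1.84 without and -0.30 with the AA allele. None passed the interaction test, 2 had an adjusted p below 0.1, 16 had an unadjusted p below 0.05, and 18 fell in bCATca against WT. Over all genes, 0.444% and 7.90% were higher at these thresholds, and 3.55% fell. In this list the larger part in the median was that of the AA allele alone: it was -0.98 in IKKa-AA against WT and 0.57 in double mutants against bCATca. The median difference from WT was -1.72 on IKKa-AA replicate 1 and -0.25 on replicate 2, beside -1.44 and -2.22 with bCATca alone and -1.09 and -1.74 with both alterations. The median interaction was 0.82 without replicate 1 and 2.09 without replicate 2. Abcb1a, a drug efflux pump, read 10.37 and 10.80 on the WT arrays, 9.04 and 10.32 on those of IKKa-AA, 8.38 and 8.29 with bCATca alone, and 9.97 and 9.95 with both alterations (interaction 2.54, adjusted p = 0.0882). The bCATca arrays were the lowest and the double mutants lay between the IKKa-AA arrays. Nr1i2, the xenobiotic receptor PXR, had effects of -0.99 and 0.37 (interaction 1.37, adjusted p = 0.112). Gsta2, a glutathione transferase, had -2.69 and -0.01 (interaction 2.68, adjusted p = 0.128).

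**Figure D4:**
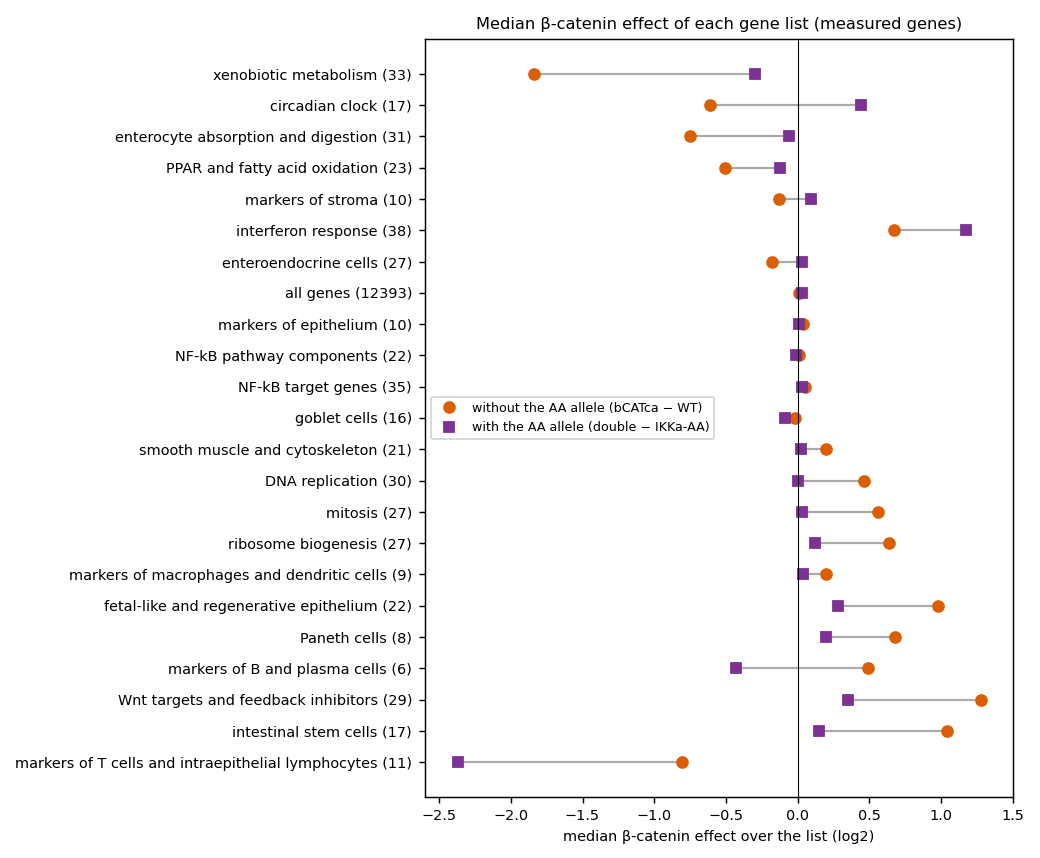
Median effect of stabilised β-catenin over the measured genes of each list (log2), without the AA allele (orange circles) and with it (purple squares), with the number of genes in brackets and lists ordered by median interaction. Wnt, stem cell and fetal-like lists fall towards 0 with the AA allele, xenobiotic and enterocyte lists rise towards 0, the interferon list moves further from 0, and the NF-kB lists and all genes stay near 0.

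The circadian clock list is set out because Per2 passed the test and its median interaction of 1.19 was second to that of the xenobiotic genes. In the clock, CLOCK and BMAL1 activate the Per and Cry genes through E-boxes, PER and CRY proteins repress them, and the PAR factors DBP, TEF and HLF act through D-boxes. Of 17 measured genes, 1 passed, 5 had an adjusted p below 0.1 (Per1, Per2, Per3, Tef and Bhlhe40, all positive), and 9 had an unadjusted p below 0.05. Over all genes, 0.0403%, 0.444% and 7.90% were higher at these thresholds. The median effect of β-catenin was -0.61 without and 0.44 with the AA allele. In bCATca against WT, 5 members fell (3.55% of all genes). The median interaction lay between 0.88 and 1.27 in refits without 1 array. The times of day at which tissues were taken were not stated.

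Per2, a repressor of the clock, read 7.24 and 6.68 on the WT arrays, 5.82 and 5.67 on those of IKKa-AA, 4.35 and 4.78 with bCATca alone, and 6.59 and 6.95 with both alterations. Each single mutant was lower than WT, and the double mutants overlapped WT. The effect was -2.39 (adjusted p = 0.00134) without and 1.02 (adjusted p = 0.391) with the AA allele, and the interaction was 3.42 ± 0.33 (adjusted p = 0.0166), in the same direction on 2 of 2 probe sets. Per3 read 6.35 and 6.87 on the WT arrays, 5.26 and 6.0 on those of IKKa-AA, 5.23 and 5.24 with bCATca alone, and 6.34 and 6.47 with both alterations (interaction 2.15, adjusted p = 0.0549). Per3 had the order of Per2, with the double mutants at WT height. Tef read 8.75 and 8.92 on the WT arrays, 8.05 and 8.52 on those of IKKa-AA, 7.54 and 7.76 with bCATca alone, and 8.89 and 8.83 with both alterations (interaction 1.77, adjusted p = 0.0509). Per1 read 6.59 and 6.55 on the WT arrays, 6.41 and 6.16 on those of IKKa-AA, 6.0 and 5.56 with bCATca alone, and 6.89 and 7.37 with both alterations (interaction 1.64, adjusted p = 0.0688). For Per1 the double mutants were the highest of the 4 groups.

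Other clock genes had interactions far from the threshold. Arntl, which encodes BMAL1, had effects of 0.21 and -0.50 (interaction -0.71, adjusted p = 0.364). Nr1d1, the nuclear repressor REV-ERBα, stood at 5.87 and 7.94 in WT, so the replicates of 1 group spanned nearly the whole range (interaction -1.40, adjusted p = 0.426). Dbp stood at 6.83 and 8.86 in WT and at 6.52 and 8.35 in IKKa-AA, and its interaction of 1.92 did not pass (adjusted p = 0.386). Dbp and Nr1d1 are known for wide daily swings, and their WT replicates differed by more than any 2 group means did.

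**Figure D5:**
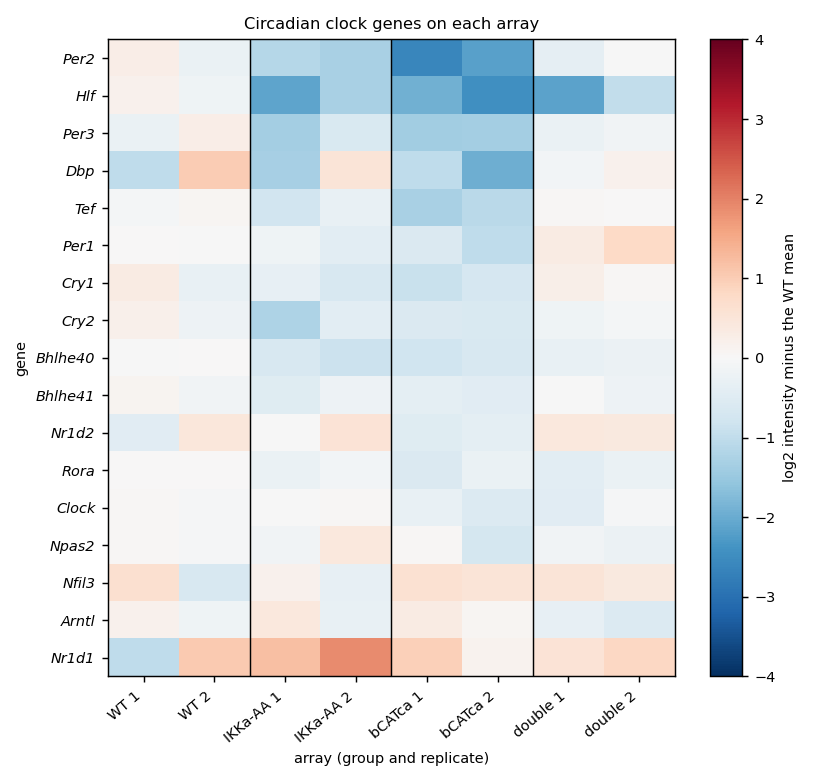
Difference of log2 intensity from the WT mean (colour) for 17 clock genes (rows, ordered by interaction) on each of the 8 arrays (columns). The upper rows, led by Per2, are lower in the IKKa-AA and bCATca arrays and near the WT mean in most double mutants, while Dbp and Nr1d1 differ widely between replicates.

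Promoters of 3 clock genes are shown because their windows hold the elements by which the clock acts. Of 17 clock genes 15 had a window, 20 in all. No window was held for Per2 or Bhlhe40, so neither was searched. The E-box CACGTG was in 5 of these windows, from Bhlhe41, Cry1, Per1 and Tef, against 7.15% of all windows. The D-box TTATGTAA was in the Per3 window, at 2 sites, against 0.938% of all windows. Capitals mark these matches, and a match is a description of the letters only. The windows, on GRCm38.p6, are chr15:81802423-81802722 (plus strand, 1 of 2 for Tef), chr11:69098699-69098998 (plus strand, 1 of 2 for Per1) and chr4:151044616-151044915 (minus strand, Per3).
Tef: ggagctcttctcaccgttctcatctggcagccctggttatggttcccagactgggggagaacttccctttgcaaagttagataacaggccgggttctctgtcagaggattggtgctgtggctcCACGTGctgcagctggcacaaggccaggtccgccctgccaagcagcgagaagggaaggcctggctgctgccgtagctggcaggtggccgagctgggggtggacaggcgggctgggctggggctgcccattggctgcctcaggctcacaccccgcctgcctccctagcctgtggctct
Per1: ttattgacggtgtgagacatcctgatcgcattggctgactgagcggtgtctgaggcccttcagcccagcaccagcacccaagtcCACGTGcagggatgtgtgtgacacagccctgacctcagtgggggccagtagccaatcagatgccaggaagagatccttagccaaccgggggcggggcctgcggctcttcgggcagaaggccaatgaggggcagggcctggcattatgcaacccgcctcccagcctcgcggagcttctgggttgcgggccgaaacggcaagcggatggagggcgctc
Per3: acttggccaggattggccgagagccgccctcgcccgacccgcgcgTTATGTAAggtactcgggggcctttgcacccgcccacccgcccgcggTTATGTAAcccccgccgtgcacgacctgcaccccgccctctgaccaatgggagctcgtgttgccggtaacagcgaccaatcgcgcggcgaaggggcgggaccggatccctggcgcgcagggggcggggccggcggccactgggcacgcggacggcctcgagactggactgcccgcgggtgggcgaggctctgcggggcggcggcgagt

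IKKα belongs to the NF-κB pathway, so its components and targets were read for the interaction too. Over 22 components the median interaction was -0.04, and over 35 target genes it was -0.09, with 0 members past the test in either list, while at an unadjusted p below 0.05 there were 1 higher and 1 lower component and 2 higher and 2 lower targets. These counts are near the all-gene shares of 7.90% higher and 7.84% lower. Ikbkb, the gene of IKKβ, had effects of 0.66 (adjusted p = 0.0350) and 0.07 (adjusted p = 0.950), with an interaction of -0.58 (adjusted p = 0.254). Rela, the p65 subunit, read 8.0 and 8.07 on the WT arrays, 8.18 and 8.25 on those of IKKa-AA, 8.61 and 8.45 with bCATca alone, and 8.23 and 8.33 with both alterations (interaction -0.43, adjusted p = 0.325). RNA levels of these genes are not a measure of kinase or NF-κB activity.

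Further lists had medians on both sides of the all-gene median. Goblet cell genes had a median interaction of -0.16 over 16 members. The 8 measured Paneth cell genes had -0.64, negative in all 8. Of these, Pla2g2a had the smallest interaction p (interaction -2.14, adjusted p = 0.0509). Mmp7, a Paneth cell protease, had effects of 1.89 (adjusted p = 0.00942) and 0.71 (adjusted p = 0.701), with an interaction of -1.18 (adjusted p = 0.249). PPAR and fatty acid oxidation genes had a median of 0.55 over 23 members, positive in 20. Ppara itself had -1.47 and -0.20 (interaction 1.26, adjusted p = 0.202). Smooth muscle and cytoskeleton genes had a median of -0.22 over 21 members, so Myl9 stood apart from the list to which it belongs. The summed intensity of stroma markers was between 306.4 and 459.0 on all arrays, and Col1a1, Lum and Myh11 were near background on every array.

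Lymphocyte markers differed between the arrays and are given beside these results. The summed linear intensity of 11 T cell and intraepithelial lymphocyte markers was 12786.0 and 9450.7 on the WT arrays, 2841.1 and 10568.8 on those of IKKa-AA, 7872.5 and 5847.2 with bCATca alone, and 1297.5 and 962.8 with both alterations. Double mutants were the lowest group, and IKKa-AA replicate 1 was nearer to them than to replicate 2. The median effect over the list was -0.81 without and -2.37 with the AA allele, with a median interaction of -1.47, which was -2.39 without IKKa-AA replicate 1 and -0.37 without replicate 2. The sum of 6 B and plasma cell markers was 1570.0 and 1985.8 on the WT arrays, 329.4 and 3888.0 on those of IKKa-AA, 4011.6 and 3003.6 with bCATca alone, and 174.8 and 185.5 with both alterations. None of these markers passed the interaction test, and 1 T cell marker was higher, 2 were lower and 5 of the B and plasma cell markers were lower at an unadjusted p below 0.05. Over all genes, 7.90% were higher and 7.84% lower at that threshold. Ccl5, a chemokine of cytotoxic cells, had -2.99 (adjusted p = 0.155), and Igha, the IgA heavy chain, had -5.0 (adjusted p = 0.200). Their part in the other results was not tested. The sum of 9 macrophage and dendritic cell markers was highest with bCATca alone (842.2 and 971.1) and lowest with both alterations (527.9 and 570.0). WT (703.9 and 674.3) and IKKa-AA (599.8 and 786.7) lay between them.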

How the data were processed

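RNA of 8 samples was measured on Affymetrix arrays, and the authors deposited 1 linear intensity per probe set and array. The submitters' processing notes name RMA and affy, without versions. RMA ends on a log scale, so a return to linear values is read from the values alone. RMA sets arrays to 1 distribution, which hides a global shift. Median intensities were 50.9 to 53.8, and precision is limited by there being 2 arrays per group. Of 22690 probe sets, 20380 had 1 gene symbol, 691 several and 1555 none, and 64 were controls. Symbols were updated through the Entrez ID for 20351 and an accession for 1, and 28 were kept. Of the 12393 genes, 4956 had more than 1 probe set, and the one with the highest overall mean was used.

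Log2 values were fitted with 1 mean per group over all 8 arrays (limma 3.58.1, R 4.3.3, lmFit and eBayes, residual degrees of freedom 4, prior 4.28), with Benjamini-Hochberg adjustment over all genes. The script was tested on simulated data. Named genes were Ctnnb1, all genes past the interaction test (filled to 6 in a direction), the leading genes of each class, and up to 4 genes per list with the smallest interaction p. Names outside this rule were Bex1, Ifitm1, Ifit2, Ifi27l2a, Ghrl, Cck, Chga, Npl, Btc, Sox17, Notum, Wif1, Lgr5, Per1, Gnb3, Dbp, Nr1d1, Arntl, Noct, Usp2, Tsc22d3, Igfbp1 and Igfbp3, and were chosen after their values were seen, as were the acinar and lymphocyte genes named last. Lists, classes and tests were chosen with earlier results of these data known. List symbols not found among the measured genes were matched through gene synonyms where the match was unique, which can bring in a different gene. The looser rule for kept effects was added after the data were seen. Sequences are from RefSeq (GRCm38.p6). Replicate numbers were checked for pairing by the correlation of deviations from group means, and no block was used in the fit reported.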

Additional observations from a re-analysis of the deposited data

Results flagged for a closer look

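For 11 genes the effect of stabilised β-catenin differed between mice with and without the AA allele by the interaction test itself (limma, adjusted over 12393 genes, adjusted p from 0.0166 to 0.0495). Of these, 6 had a negative interaction, with a rise without the AA allele and a smaller or, for Fzd7, no rise with it: Myl9 (-3.23), Hacd4 (-2.35), Hs6st2 (-2.21), Nkd1 (-2.14), Marcksl1 (-1.81) and Fzd7 (-1.58). The other 5 had a positive interaction, with a fall without the AA allele and an estimated effect of smaller size with it, of opposite sign for Per2 and Acox2: Slc23a1 (3.95), Per2 (3.42), Acox2 (3.37), Ces1f (2.08) and Amph (2.04). Amph was near background in IKKa-AA, bCATca and double mutants, so a further fall with the AA allele could not be measured. Slc23a1 was near background in bCATca, so the size of its interaction is not exact. Kcnk5, a potassium channel, was the next positive gene and did not pass (1.76, adjusted p = 0.0501).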

How the results depend on the processing

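With 2 arrays per group, counts moved widely. The 11 interaction genes kept their sign in every setting that retained them, and the medians of raised and lowered genes kept theirs. With 1 array left out, the median interaction changed sign for the interferon (-0.04 to 0.72), goblet (-0.20 to 0.07), NF-kB component, NF-kB target and epithelial lists, and the values of Ctnnb1, Ghrl, Cck, Chga and Npl, all near 0, did too. The counts of genes past the interaction test and of β-catenin effects opposed by the interaction were 7 each with a pseudocount of 16 and with a filter on low values, 52 each with a trended prior, 59 each with a robust prior, 60 and 56 over all probe sets (with 4 effects only with the AA allele), and 148 each at a threshold of 0.1. Kept effects numbered 0 under quantile normalisation, the pseudocount, the filter, the mean of probe sets, the robust prior and a 1.5-fold limit, and 2 at 0.1. The looser rule gave 148 with the pseudocount, 147 with the mean of probe sets, 344 at 0.1 and 10 within 1.5-fold. The median interaction of raised genes was -0.93 under quantile and under cyclic loess normalisation, -0.71 with the pseudocount, -0.75 with the mean of probe sets, -0.92 over all probe sets and -0.61 at 0.1, and that of lowered genes was 0.61 at 0.1. The replicate block gave 6 genes, 6 opposed effects, 0 kept, 36 by the looser rule, and medians of -1.01 and 1.04. Whether replicate numbers pair the samples was not stated. Correlations between groups were 0.15, -0.10, -0.01, -0.45, -0.01 and -0.10, which cannot settle it with 2 arrays per group. Without 1 array at a time, genes past the test ranged from 0 to 234, opposed effects from 0 to 230, kept effects from 0 to 14, effects only with the AA allele from 0 to 8, the looser rule from 11 to 524, the median of raised genes from -1.34 to -0.38 and that of lowered genes from 0.23 to 1.51. With the genes of the main effect held fixed, these medians lay between -0.90 and -0.77 and between 0.71 and 1.04. The cause of each shift was not tested. Levels near background limit the size of effects of Myl9, Nkd1, Hs6st2, Slc23a1, Amph, Isl1 and Wif1.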

Other observations

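A few genes that lay close to the threshold, picked after their values were seen, are given as values. Noct, nocturnin, a rhythmically expressed enzyme, read 9.38 and 9.31 on the WT arrays, 9.07 and 8.88 on those of IKKa-AA, 7.91 and 7.62 with bCATca alone, and 9.02 and 9.38 with both alterations (interaction 1.80, adjusted p = 0.0501). Usp2, a rhythmic deubiquitinase, had effects of -1.43 without and 0.28 with the AA allele (interaction 1.71, adjusted p = 0.0501). Tsc22d3, the glucocorticoid-induced leucine zipper, had -2.32 and 0.59 (interaction 2.90, adjusted p = 0.0537). Igfbp1, a binder of insulin-like growth factors, had 3.23 and 1.06 (interaction -2.17, adjusted p = 0.0549), and Igfbp3 had 1.77 and 0.49 (interaction -1.27, adjusted p = 0.0905).

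Effects only with the AA allele appeared where single arrays were left out, which leaves 1 array in the group concerned. Without IKKa-AA replicate 1 there were 8, all lower in double mutants: Ccl5, Fyn, Gzma, Igkv8-30, Itgae, Itln1, Lyz2 and Mfhas1. Gzma, a granzyme of cytotoxic lymphocytes, then had an interaction of -2.64 (adjusted p = 0.0264), against -1.74 (adjusted p = 0.285) with all arrays. Without double mutant replicate 2 there were 6, all higher: 2210010C04Rik, Cel, Cela2a, Cpb1, Ctrb1 and Ctrl, of which Cel, Cela2a, Cpb1, Ctrb1 and Ctrl are known as digestive enzymes of the pancreas. Ctrb1, chymotrypsinogen B, then had an interaction of 3.80, against 2.17 (adjusted p = 0.384) with all arrays. These 6 rest on the level of double mutant replicate 1. Its sum of 3 pancreatic acinar markers was 488.2, against 224.5 on replicate 2 and 251.1 to 330.9 on the arrays of the other groups.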
